A study of Mus musculus with 24 samples.

Results

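The genes described here are 39 genes of simple epithelia and of the urogenital ridge, measured in cultures of the mouse aorta-gonad-mesonephros region (AGM), the embryonic tissue around the dorsal aorta that also forms the first gonad and kidney. They were listed by name, with earlier results of these data known, so the choice was not independent of the values. They fall in 6 roles: 4 keratins, 11 genes of cell junctions and adhesion, 7 epithelial regulators and surface protease genes, 12 urogenital transcription factors, 2 Wnt ligands, and 3 surface genes of mesothelium and urothelium. A gene entered the tests when 1 or more of its probes had a detection p under 0.05 on every array of some group, and its brightest such probe stood for it. By that rule 21 of the 39 genes were tested, among 12226 genes in all.

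AGM regions of C57BL/6J embryos at E10.5 were dissociated, seeded in channel slides, washed free of cells that had not attached, and cultured in moving medium, so the arrays describe attached cells of mixed types; lysates of 6 channels made 1 sample. The 8 groups of 3 arrays were wall shear stress (WSS, 5 dyne per cm2) with 10 uM indomethacin, WSS with vehicle, static or low flow (0.0001 dyne per cm2) with indomethacin, and static or low flow with vehicle, each after 36 h and after 6 h. Indomethacin inhibits cyclooxygenases, the enzymes that begin prostaglandin synthesis. Nothing in the labels tells whether a group's 3 samples are independent cultures or litters, so each p reflects a spread that could be purely technical.

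Simple epithelia, such as the nephric duct, the mesonephric tubules and the coelomic lining, hold their shape with keratins 7, 8, 18 and 19, seal their cells with claudins, and join them through E-cadherin and desmosomes. At mid-gestation the nephric duct and the tissue beside it are laid down in intermediate mesoderm under transcription factors such as Osr1, Lhx1, Pax2 and Pax8, and the surface of the ridge is a mesothelium from which gonadal and other cells are drawn. When epithelial cells turn mesenchymal they lose keratins and junction proteins, and zinc-finger repressors of the Snail and Zeb families bind E-boxes in the promoters of several epithelial genes.

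The label was borne out in part. All 4 keratins were detected, as were 6 of the 11 junction genes (Cdh1, Cldn4, Cldn6, Cldn7, Dsp and Pkp2), 4 of the 7 epithelial regulators (Esrp1, Elf3, Rab25 and Spint1), 5 of the 12 urogenital transcription factors (Pax8, Lhx1, Osr1, Sall1 and Eya1), 1 of the 2 Wnt ligands (Wnt4) and 1 of the 3 surface genes (Upk3b). A further 17 had probes that did not reach the rule: Epcam, Cdh16, Cldn3, Ocln, Jup, Grhl2, St14, Spint2, Pax2, Emx2, Six2, Nr5a1, Lhx9, Gata4, Wnt9b, Upk1b and Msln. Their deposited signals lay between 55 and 111 and each was detected on 0 to 4 of 24 arrays. Epcam, a pan-epithelial adhesion molecule, was detected on 0 arrays, and Gata4, Lhx9 and Nr5a1, which mark the gonadal ridge, on 2, 4 and 1. Wt1 has no probe paired with its symbol here and was not analysed. The detected set therefore rests on keratins, some claudins, desmosomal genes and some of the urogenital regulators. The gonadal markers Gata4, Lhx9 and Nr5a1 were near background, but so were other members. Among these, the nephric factor Pax2 and Six2 were detected on 4 of 24 arrays each and Wnt9b on 3, and Ocln, Grhl2 and Spint2 on 0.

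Promoters of 4 epithelial genes that were lower at 36 h than at 6 h are shown, chosen among those that hold an E-box. Each is the 250 bases before the annotated start, 5′ to 3′ on the gene's strand, from RefSeq (GRCm38.p6): Krt8 at chr15:102004343-102004592 on the minus strand, Krt18 at chr15:102027966-102028215 on the plus strand, Cldn4 at chr5:134946935-134947184 on the minus strand, and Cldn6 at chr17:23679115-23679364 on the plus strand. Capitals mark the E-box CACCTG or its reverse complement CAGGTG, the core that Snail and Zeb proteins are known to bind; the search took both strands, and the 2 strings are the same site read from either strand.
Krt8: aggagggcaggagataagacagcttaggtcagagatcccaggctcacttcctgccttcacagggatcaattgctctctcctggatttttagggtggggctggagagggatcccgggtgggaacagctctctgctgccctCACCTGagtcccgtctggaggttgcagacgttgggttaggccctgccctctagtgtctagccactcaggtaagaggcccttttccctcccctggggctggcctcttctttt
Krt18: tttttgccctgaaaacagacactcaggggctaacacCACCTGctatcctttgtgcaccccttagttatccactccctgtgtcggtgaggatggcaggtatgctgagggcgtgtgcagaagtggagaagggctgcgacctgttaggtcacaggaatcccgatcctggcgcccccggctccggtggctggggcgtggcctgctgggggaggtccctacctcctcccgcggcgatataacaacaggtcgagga
Cldn4: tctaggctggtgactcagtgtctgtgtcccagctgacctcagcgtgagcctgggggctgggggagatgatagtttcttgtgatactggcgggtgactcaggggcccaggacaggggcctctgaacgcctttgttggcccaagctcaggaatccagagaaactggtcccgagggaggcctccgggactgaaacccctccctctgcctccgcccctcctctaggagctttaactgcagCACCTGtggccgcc
Cldn6: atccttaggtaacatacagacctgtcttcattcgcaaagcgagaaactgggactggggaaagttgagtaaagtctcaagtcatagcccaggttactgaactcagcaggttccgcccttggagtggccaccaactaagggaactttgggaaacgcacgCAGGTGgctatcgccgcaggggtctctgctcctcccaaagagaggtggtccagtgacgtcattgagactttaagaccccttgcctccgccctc
The E-box lay 111 bases before the start in Krt8, 214 in Krt18, 14 in Cldn4 and 93 in Cldn6. Of the 39 genes, 25 had a promoter in the table and 14 of those held the E-box within 250 bases; among the tested genes it was 9 of 15 (Krt7, Krt8, Krt18, Cldn4, Cldn6, Cldn7, Elf3, Rab25 and Wnt4). The 6 without it were Dsp, Spint1, Upk3b, Lhx1 and Sall1, which were also lower at 36 h in at least 1 setting, and Pax8, which passed in 0. Of the 9 with it, Cldn7 and Elf3 passed in 0 settings and Wnt4 was higher in 1. Over all 32851 such windows 17.2% held it, and 19.4% of 27025 genes had at least 1 window with it. A match describes letters in the window and not a bound site.

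Over all 24 arrays 41.3 to 48.9% of probes were detected, and gene-level correlations were 0.98 to 0.993 within groups and 0.928 to 0.992 between groups, with 0 identical pairs of arrays. Values below are log2 intensities after background correction and quantile normalization, differences are log2 fold changes with their standard error (SE) from limma over all 24 arrays, and a gene passed at an adjusted p under 0.05 over all 12226 genes. Levels of different probes are not comparable. Array 2 of the WSS indomethacin 6 h group stood apart in blood markers, with a summed intensity of 9697 beside 108188 and 116420 on arrays 1 and 3. Without it, the 3 calls for WSS against static at 6 h with indomethacin became 2, as Lhx1 was lost. The 11 calls for 36 h against 6 h in WSS indomethacin cultures became 9. Within groups the tested genes varied more than genes at large, with a median SD of 0.18 to 0.36 against 0.12 to 0.20 over all genes.

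Time in culture was the comparison in which most of these genes differed. After 36 h, against 6 h, 16 of the 21 tested genes were lower and 0 higher in static vehicle cultures, where 25% of all genes were lower and 26% higher (51% in all). With WSS and vehicle 12 were lower and 0 higher (17.7% and 18% of all genes, 35.8% in all), with indomethacin in static culture 14 were lower and 1 higher (22.3% and 24.5%, 46.9% in all), and with WSS and indomethacin 11 were lower and 0 higher (16.2% and 14.6%, 30.7% in all). The median log2 fold change of the 21 was -1.14, -0.63, -1 and -0.48 in that order, beside 0.01, 0.01, 0.03 and -0.01 over all genes. The 36 h and 6 h arrays did not overlap for 17, 13, 15 and 11 of the 21, beside 56.9%, 44.7%, 52.8% and 47.9% of all genes. These counts carry the detection rule with them: 15 of the 21 were detected at both times, 6 entered through 6 h groups alone (Krt7, Cldn6, Dsp, Esrp1, Rab25 and Upk3b; 28.6%, beside 6.32% of all genes) and 0 through 36 h groups alone. Among the 9 that were detected in every group, and so owed nothing to one time point, 6, 4, 5 and 4 were lower in the same order, where 25.8%, 18.7%, 22.9% and 17.2% of the 9489 genes detected in every group were.

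All 4 keratins fell, in every setting except Krt7 under WSS with indomethacin. Krt8, the type II keratin of simple epithelia, was at 7.74, 6.28 and 8.64 on the 36 h arrays of static vehicle cultures, against 9.28, 10.24 and 10.15 at 6 h. Under WSS with vehicle it was at 7.52, 5.84 and 7.95 at 36 h, against 9.40, 9.70 and 9.69 at 6 h. All 36 h arrays lay below all 6 h arrays in both settings, and array 2 was the lowest at 36 h in each. The log2 fold change of Krt8 was -2.34 in static vehicle, -2.49 in WSS vehicle, -1.83 in static indomethacin and -2.24 in WSS indomethacin cultures (each ± 0.48, SE; adjusted p 0.00038, 0.00042, 0.0036 and 0.0013). Without array 2 of the static 36 h group the static vehicle difference was -1.70, and without array 2 of the WSS 36 h group the WSS vehicle difference was -1.86.

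Krt18, the type I partner that forms filaments with Krt8, was at 7.00, 6.61 and 7.76 at 36 h in static vehicle cultures, against 8.88, 9.97 and 9.81 at 6 h. Under WSS with vehicle the arrays read 6.62, 6.01 and 7.02 at 36 h, against 8.89, 9.27 and 8.95 at 6 h. The groups did not overlap in either setting or in the indomethacin cultures. The log2 fold change of Krt18 was -2.43, -2.49, -2.03 and -2.59 (each ± 0.36, SE; adjusted p 1.1e-05, 2.3e-05, 1e-04 and 1.8e-05) in static vehicle, WSS vehicle, static indomethacin and WSS indomethacin cultures, a 4.08- to 6.04-fold lower intensity. Krt19, a type I keratin of ducts and simple linings, was at -2.23, -2.08, -2.30 and -2.35 in the same order, all of them passing (each ± 0.48; adjusted p 0.00066, 0.0021, 0.0006 and 0.00093). Its static vehicle value rested on unequal arrays, 7.69, 5.26 and 8.39 at 36 h, against 8.97, 9.50 and 9.54 at 6 h: the difference was -1.30 without array 2 of the 36 h group and -2.86 without array 3. Without background correction Krt19 was at -1.30 in WSS vehicle and -1.33 in WSS indomethacin cultures, and with the processed values the WSS indomethacin value was -3.10, all of them passing. At 36 h under WSS its probe was detected on 2 of 3 arrays with vehicle and 1 of 3 with indomethacin. The sizes of the Krt19 differences under WSS are therefore uncertain. Krt7, the type II keratin that entered through 6 h groups alone, was at 5.39, 4.97 and 5.43 at 36 h in static vehicle cultures, against 6.14, 6.40 and 6.40 at 6 h, without overlap. It passed at -1.05 ± 0.23 in static vehicle, -0.63 ± 0.23 in WSS vehicle and -1.39 ± 0.23 in static indomethacin cultures (adjusted p 0.00078, 0.038 and 6.1e-05), and was at -0.55 ± 0.23 (0.080) in WSS indomethacin cultures. The WSS vehicle call for Krt7 was lost without array 2 or 3 at 6 h or array 1 or 2 at 36 h, with an adjusted p of up to 0.15.

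**Figure D1:**
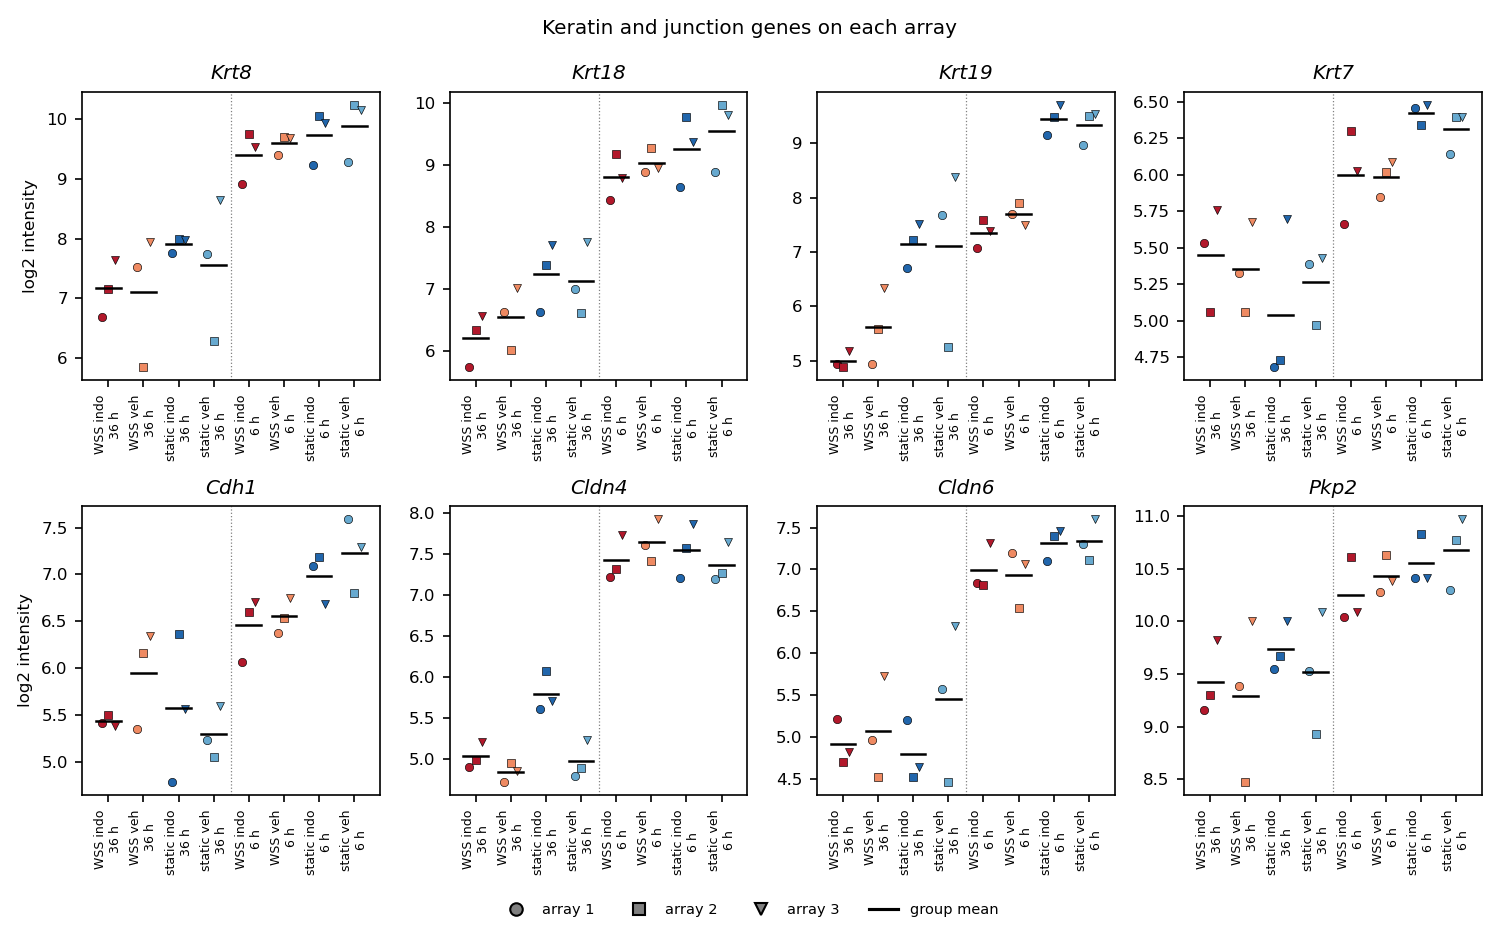
Normalized log2 intensity (y axis) of 4 keratin and 4 junction genes on each array, with the 36 h groups left of the dotted line, the 6 h groups right of it, and bars at group means. Krt8 and Krt18 sat lower at 36 h than at 6 h in all 4 culture settings, and Krt19 sat lower under WSS than in static culture at 6 h.

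Junction genes were lower at 36 h in most members. Cldn4, a tight-junction claudin, was at 4.79, 4.89 and 5.23 at 36 h in static vehicle cultures, against 7.19, 7.26 and 7.64 at 6 h. With WSS and vehicle it was at 4.72, 4.95 and 4.85 at 36 h, against 7.60, 7.41 and 7.92 at 6 h. No 36 h array of these vehicle groups detected the probe, so only a bound can be given, and Cldn4 was at least 4.42-fold lower at 36 h in static and at least 5.74-fold lower in WSS vehicle cultures (adjusted p 4.4e-09 and 3.1e-09). In static indomethacin cultures, where all 3 arrays at 36 h detected it, Cldn4 was at -1.75 ± 0.19 (adjusted p 3.1e-07), and in WSS indomethacin cultures at -2.39 ± 0.19 (2.3e-08). In WSS indomethacin cultures 1 of 3 arrays detected Cldn4 at 36 h, so that size is uncertain. Cldn6, a claudin of embryonic epithelia, was at 5.57, 4.47 and 6.32 at 36 h in static vehicle cultures, against 7.30, 7.11 and 7.60 at 6 h, with log2 fold changes of -1.88, -1.86, -2.52 and -2.08 (each ± 0.34; adjusted p 1e-04, 0.00025, 5.1e-06 and 0.00011) in static vehicle, WSS vehicle, static indomethacin and WSS indomethacin cultures. At 36 h Cldn6 was detected on 2 of 3 arrays in static vehicle and 1 of 3 in each other group, so its 36 h levels lie near background and the sizes of these differences are uncertain. Without background correction the Cldn4 and Cldn6 differences were smaller by over 1.5 times, for example -1.35 for Cldn4 and -1.13 for Cldn6 in static vehicle cultures, and still passed.

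Cdh1, which encodes E-cadherin, was at 5.23, 5.05 and 5.60 at 36 h in static vehicle cultures, against 7.59, 6.80 and 7.29 at 6 h, with no overlap. It passed at -1.93 ± 0.30 there (adjusted p 2.2e-05), at -1.41 ± 0.30 in static indomethacin (0.00072) and at -1.03 ± 0.30 in WSS indomethacin cultures (0.013; 0.059 without array 3 of the WSS indomethacin 6 h group). Under WSS with vehicle it was at 5.35, 6.16 and 6.34 at 36 h, against 6.38, 6.54 and 6.75 at 6 h, a difference of -0.61 ± 0.30 that did not pass (adjusted p 0.12). Without background correction the Cdh1 differences were -1.11 in static vehicle and -0.80 in static indomethacin cultures, and still passed. Pkp2, a desmosomal plaque protein, was at 9.53, 8.93 and 10.09 at 36 h in static vehicle cultures, against 10.30, 10.77 and 10.97 at 6 h. Its times did not overlap in any setting, and it passed at -1.16, -1.13, -0.81 and -0.82 (each ± 0.31; adjusted p 0.0034, 0.0065, 0.036 and 0.047) in static vehicle, WSS vehicle, static indomethacin and WSS indomethacin cultures, and both of its other detected probes were lower at 36 h in all 4 settings. The WSS vehicle call for Pkp2 was lost without array 2 at 36 h (adjusted p 0.058). Its calls with indomethacin were lost without array 1 or 2 at either time in static culture (up to 0.13) and without any array but array 3 of 36 h under WSS (up to 0.19). Dsp, the desmosomal linker to keratin filaments, was detected on 0 of 3 arrays in both vehicle groups at 36 h and was at least 1.59-fold lower than at 6 h in static vehicle cultures (adjusted p 0.00063). In WSS vehicle cultures, where 2 of 3 arrays detected Dsp at 6 h, it was at least 1.23-fold lower (0.028), a call lost without array 3 at 6 h or any of the 36 h arrays (up to 0.21), or with the processed values (0.12). With indomethacin Dsp was at -0.53 ± 0.25 in static and -0.37 ± 0.25 in WSS cultures, and neither passed (adjusted p 0.082 and 0.28). Cldn7 lay between -0.57 and -0.09 and passed in 0 of the 4 settings by limma, with 0 below an unadjusted p of 0.05.

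Epithelial regulators followed the junction genes in part. Spint1, an inhibitor of the membrane protease matriptase, was at 5.30, 5.29 and 6.17 at 36 h in static vehicle cultures, against 7.14, 7.09 and 7.35 at 6 h. Its arrays did not overlap between the times in any setting, and it passed at -1.61, -1.47, -1.92 and -1.14 (each ± 0.21; adjusted p 2.1e-06, 1.9e-05, 3.1e-07 and 0.00029) in static vehicle, WSS vehicle, static indomethacin and WSS indomethacin cultures. Without background correction Spint1 was at -0.94, -0.82, -1.10 and -0.66 and still passed. Esrp1, an epithelial splicing factor, was detected on 0 arrays of each group at 36 h. It was at least 1.28-fold lower than at 6 h in static indomethacin cultures (adjusted p 0.00025). Static indomethacin at 6 h was the 1 group in which all 3 arrays detected Esrp1, and so the 1 through which it entered the tests. That call thus draws on the group that admitted the gene. In static vehicle cultures, with 2 of 3 arrays detected at 6 h, Esrp1 was at least 1.06-fold lower (0.010; 0.066 without array 3 at 6 h), and in WSS vehicle cultures at least 1.11-fold lower (0.017; up to 0.094 without array 1 or 2 at 6 h or array 1 at 36 h). In WSS indomethacin cultures Esrp1 was at -0.36 ± 0.20 and did not pass (0.19). Rab25, a GTPase of epithelial membrane recycling, was likewise undetected at 36 h and at least 1.14-fold lower than at 6 h in static indomethacin cultures (adjusted p 3.1e-05). That 6 h group is the 1 through which Rab25 entered the tests, so this call draws on the group that admitted it. Its other calls, in static vehicle and WSS indomethacin cultures, rested on groups with 1 of 3 arrays detected at 6 h and were lost without 5 and 3 of the arrays in turn. Elf3, an epithelial ETS factor, lay between -0.36 and 0.18 and passed in 0 settings, with 0 below an unadjusted p of 0.05.

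Urogenital regulators did not move as a group. Lhx1, a LIM homeobox factor of the nephric duct, was at 9.59, 9.88 and 8.78 at 36 h in static vehicle cultures, against 10.60, 10.56 and 10.71 at 6 h, without overlap. It passed at -1.21 ± 0.27 there (adjusted p 0.0009) and at -1 ± 0.27 in static indomethacin cultures (0.0051), and its other detected probe gave -1.29 and -1.25. Under WSS the Lhx1 differences were -0.21 ± 0.27 with vehicle and -0.29 ± 0.27 with indomethacin (adjusted p 0.58 and 0.45), from 6 h levels that were already lower. Osr1, the zinc-finger factor of early intermediate mesoderm, was at 9.42, 9.58 and 9.42 at 36 h in static vehicle cultures, against 10.20, 10.15 and 10.31 at 6 h, a narrow and separate set of arrays. By this brightest probe it passed at -0.75, -0.57, -0.82 and -0.48 (each ± 0.11; adjusted p 1.3e-05, 0.00053, 5.6e-06 and 0.0025) in static vehicle, WSS vehicle, static indomethacin and WSS indomethacin cultures. A dimmer Osr1 probe, detected on all 24 arrays, gave -0.03, 0.32, -0.07 and 0.18, so the probes disagreed, and with the mean over both the WSS calls were lost (adjusted p 0.58 and 0.52). Sall1, a zinc-finger factor of the kidney mesenchyme, was at 7.6, 7.57 and 7.5 at 36 h in static vehicle cultures, against 8.01, 7.84 and 8.12 at 6 h, without overlap. By this brightest probe it fell by 0.44 ± 0.13 in static vehicle cultures (adjusted p 0.0083). It was at -0.26, -0.18 and -0.17 in WSS vehicle, static indomethacin and WSS indomethacin cultures, none of which passed. A dimmer Sall1 probe, detected on all 24 arrays, gave -0.83 in static vehicle, 0.15 in WSS vehicle, -0.74 in static indomethacin and -0.19 in WSS indomethacin cultures. The probes thus differed in size, and in sign for WSS vehicle.

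Pax8, a paired-box factor of the nephric lineage, was the member with the most positive values over time that did not pass: 0.52 ± 0.37, 0.71 ± 0.37, 0.70 ± 0.37 and 0.05 ± 0.37 in static vehicle, WSS vehicle, static indomethacin and WSS indomethacin cultures (adjusted p 0.25, 0.14, 0.12 and 0.94). Eya1, a transcriptional co-activator of kidney mesenchyme, lay between -0.31 and -0.01. Wnt4, a ligand of nephron and ovary formation, was at 7.80, 8.47 and 8.09 at 36 h in static indomethacin cultures, against 7.90, 7.79 and 7.31 at 6 h. Those arrays overlapped, and Wnt4 rose by 0.45 ± 0.18 (adjusted p 0.044), a call lost without array 2 or 3 at either time (up to 0.25). In static vehicle cultures Wnt4 was at 0.36 ± 0.18 (adjusted p 0.099), with no overlap between times. Upk3b, a uroplakin gene of mesothelium, was at 4.95, 4.67 and 5.45 at 36 h in static vehicle cultures, against 6.03, 6.24 and 6.40 at 6 h, without overlap. It passed at -1.2, -0.86 and -0.84 (each ± 0.21; adjusted p 6.6e-05, 0.0029 and 0.0038) in static vehicle, WSS vehicle and WSS indomethacin cultures. In static indomethacin cultures it was at least 2.16-fold lower (2.9e-05), and its other detected probe was lower in all 4. Upk3b entered through 6 h groups alone, which favours a lower 36 h value. At 36 h it was detected on 1 of 3 arrays in static vehicle, WSS vehicle and WSS indomethacin cultures, so the sizes of these differences are uncertain. Without background correction the static vehicle value was -0.59 and still passed.

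**Figure D2:**
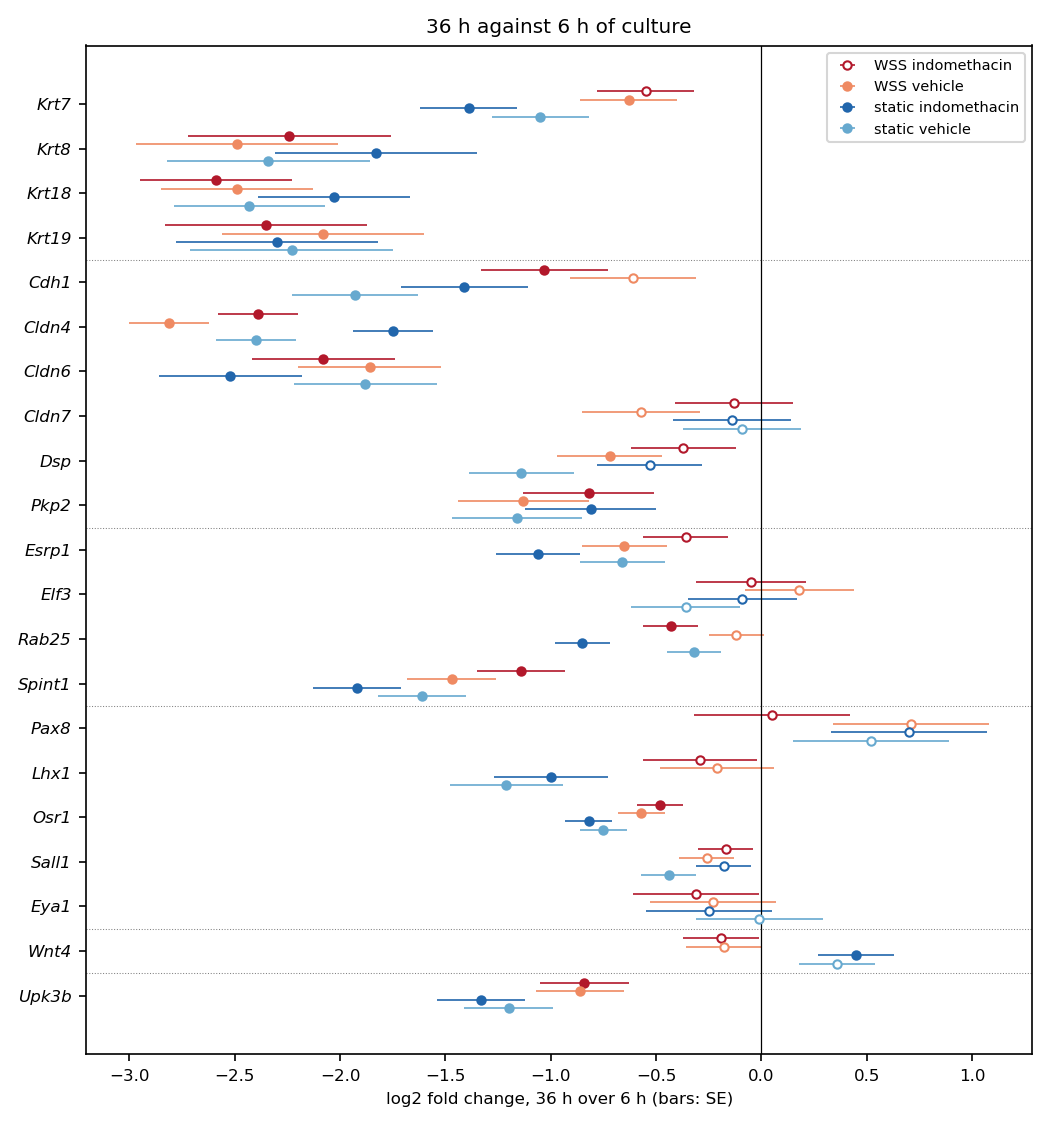
Log2 fold change of 36 h over 6 h (x axis, bars SE) for the 21 tested genes in each culture setting, grouped by role, with filled points passing at adjusted p under 0.05. Keratins, Cldn4, Cldn6 and Spint1 lay left of 0 in every setting, and Pax8, Eya1, Elf3 and Cldn7 had no filled point.

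Other genes of the same biology were counted in the same way. Of 32 further junction and epithelial genes, 15 were tested, and 7, 5, 8 and 4 were lower and 1, 0, 0 and 0 higher at 36 h in static vehicle, WSS vehicle, static indomethacin and WSS indomethacin cultures. Over all genes 25%, 17.7%, 22.3% and 16.2% were lower and 26%, 18%, 24.5% and 14.6% higher in that order. Cgn, the tight-junction protein cingulin, passed at -2.15 ± 0.22 in static vehicle and -1.54 ± 0.22 in WSS vehicle cultures (adjusted p 1.5e-07 and 2.6e-05). The desmosomal cadherin Dsg2 was at -1.62 ± 0.26 and -1.25 ± 0.26 there (3.2e-05 and 0.00091), and Itgb4, an integrin of hemidesmosomes, at -1.47 ± 0.21 and -1.23 ± 0.21 (9.3e-06 and 0.00016). Of 32 further urogenital genes, 22 were tested, and 3, 3, 3 and 1 were lower while 5, 6, 5 and 6 were higher. The share lower was below that of all genes, given above, in each setting, and the share higher was below it in static and above it in WSS cultures. Tcf21, a factor of urogenital mesenchyme, rose by 1.37 ± 0.18 in static vehicle cultures (2.6e-06) and Podxl, a sialomucin of podocytes and endothelium, fell by 1.54 ± 0.24 (2.6e-05). Of 12 mesenchymal and transition genes, all tested, 2, 2, 2 and 0 were lower and 3, 0, 5 and 2 higher, beside the same shares of all genes. Of the repressors that bind the E-box, 0 of 4 passed as higher in static vehicle cultures. Zeb1 was at -0.10 ± 0.16, Snai1 at 0.35 ± 0.18 and Snai2 at 0.34 ± 0.19 there (adjusted p 0.64, 0.10 and 0.13), and Zeb2 fell by 0.72 ± 0.17 (0.0012). Their values over time in the other settings are not given here. Any part of these repressors in the epithelial differences was not tested.

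Markers of other cell types moved over the same interval. The shares of all genes lower and higher in each setting are those given above for time. All 7 tested of 8 mesenchyme markers (Postn was not detected) were higher at 36 h in static vehicle cultures, with a summed intensity of 8439 to 8654 at 36 h, against 3253 to 3418 at 6 h. In WSS vehicle cultures 4 were higher, with 4145 to 6273 at 36 h against 2625 to 2933 at 6 h. Of the 8 macrophage markers, all detected, 5 and 4 were higher (767 to 1226 at 36 h against 410 to 525 at 6 h in static vehicle, 1030 to 1761 against 456 to 1026 in WSS vehicle). Of the 6 tested blood markers (Gata1 was not detected), 4 and 6 were lower (13818 to 50791 at 36 h against 64430 to 117628 at 6 h in static vehicle, 12414 to 22784 against 91916 to 118594 in WSS vehicle). Krt14, a keratin of surface ectoderm, passed at -1.68 ± 0.30 and -2.84 ± 0.30 in static and WSS vehicle cultures (adjusted p 8.3e-05 and 7.4e-07). At 36 h Krt14 was detected on 2 of 3 arrays in static and 1 of 3 in WSS vehicle cultures, so these sizes are uncertain. The other tested surface ectoderm genes did not pass in these cultures. Trp63 was at -0.52 and -0.16 and Sfn at -0.35 and 0.06, and Krt5 and Krt15 were not detected. In the gut endoderm list Foxa1, Foxa2 and Cdx2 were not detected, and 2 of the 4 tested were lower in each vehicle setting. Of 7 liver markers Afp, Alb, Ttr, Apoa1 and Fgb were not detected. The 2 tested were higher in static vehicle cultures, and 1 of them in WSS vehicle cultures. Of the 8 tested endothelial markers (Tie1 and Erg were not detected) 1 was higher in static vehicle and 1 lower in WSS vehicle cultures. Of the 5 tested neural markers 2 were lower and 0 higher in static vehicle cultures. Their sums there were 2158 to 2905 at 36 h, against 3757 to 4779 at 6 h. Under WSS with vehicle 2 were higher and 1 lower. Sums there were 4696 to 5623 at 36 h, against 4261 to 4874 at 6 h. In indomethacin cultures 2 were lower in static, and 1 higher and 1 lower under WSS. With indomethacin, 7 and 5 mesenchyme markers and 3 and 3 macrophage markers were higher, and 5 and 3 blood markers lower, in static and WSS cultures. In arrays of mixed cells, fewer cells of a type and less RNA per cell cannot be told apart, and the part of these markers in the epithelial differences was not tested.

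Shear stress was the next comparison, asking what flow did within one time and drug state. At 6 h in vehicle, 3 of the 21 were lower and 1 higher under WSS than in static culture, where 14.3% of all genes were lower and 15.1% higher (29.4% in all). The counts were 3 lower and 0 higher at 6 h with indomethacin (8.34% and 9.45%, 17.8% in all), 0 and 0 at 36 h in vehicle (4.72% and 4.66%, 9.38% in all), and 2 lower and 0 higher at 36 h with indomethacin (5.78% and 5.05%, 10.8% in all). These counts of passing genes lie close to the shares over all genes and by themselves say nothing particular about the 21. The median log2 fold change of the 21 was -0.29, -0.34, -0.09 and -0.07 in that order, beside 0.01, 0.04, 0.03 and 0.02 over all genes. Of the 21, 17, 16, 14 and 12 had a negative sign, as did 6002, 5479, 5579 and 5739 of the 12226 genes. Whether the 21 differ in sign from genes at large was not tested. At 36 h in vehicle, 6 of the 21 had an unadjusted p under 0.05 in limma (2 higher, 4 lower), as did 24% of all genes. WSS and static arrays did not overlap for 7, 8, 3 and 7 of the 21 in the same order, beside 45.9%, 40.2%, 24% and 27.9% of all genes.

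Krt19, the ductal keratin, had the largest flow difference of the 21 in all 4 states. At 6 h it was at 7.7, 7.91 and 7.5 under WSS with vehicle, against 8.97, 9.50 and 9.54 in static vehicle cultures. With indomethacin it was at 7.07, 7.60 and 7.39 under WSS, against 9.16, 9.48 and 9.71 in static cultures. Every WSS array lay below every static array. Krt19 passed at -1.63 ± 0.48 with vehicle (adjusted p 0.015) and at -2.09 ± 0.48 with indomethacin (0.0052), and the vehicle call was lost without array 3 of the static 6 h group (0.054). At 36 h with indomethacin it was at 4.95, 4.88 and 5.18 under WSS, against 6.71, 7.22 and 7.51 in static culture, a difference of -2.14 ± 0.48 (0.0066) that was -1.18 without background correction and -2.86 with the deposited processed values, 1 of the 3 WSS arrays detecting the probe. At 36 h in vehicle it was at 4.95, 5.58 and 6.34 under WSS, against 7.69, 5.26 and 8.39 in static culture. There the low static array overlapped the WSS arrays, and the difference of -1.49 ± 0.48 did not pass (adjusted p 0.056). It passed without that array (-2.42, adjusted p 3.2e-05) and without array 3 of the WSS 36 h group (-1.85, 0.037).

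The other keratins had lower means under WSS at 6 h without passing: Krt8 -0.29 ± 0.48 and -0.35 ± 0.48, Krt18 -0.52 ± 0.36 and -0.46 ± 0.36, and Krt7 -0.33 ± 0.23 and -0.43 ± 0.23, with vehicle and with indomethacin (adjusted p 0.22 to 0.69). At 36 h Krt7 had the other sign, at 0.09 ± 0.23 with vehicle and 0.41 ± 0.23 with indomethacin (adjusted p 0.86 and 0.27). Krt8 was at -0.45 ± 0.48 and -0.75 ± 0.48 (0.62 and 0.34), and Krt18 at -0.58 ± 0.36 and -1.02 ± 0.36 (0.34 and 0.070). With indomethacin at 36 h Krt18 read 5.73, 6.34 and 6.56 under WSS, against 6.62, 7.39 and 7.70 in static culture, without overlap. The difference between Krt19 and its neighbours in response to flow was not tested. Among the junction genes, Cldn4 under WSS with indomethacin at 36 h was at 4.90, 4.98 and 5.20, against 5.60, 6.07 and 5.70 in static indomethacin cultures, without overlap. Cldn4 fell by 0.76 ± 0.19 there (adjusted p 0.012), a call lost without array 1 of the WSS group or array 2 of the static group (up to 0.064) and without background correction (0.085). In vehicle at 36 h neither group detected Cldn4, and no fold is given. Cldn7 at 36 h in vehicle was at 5.09, 4.91 and 5.15 under WSS, against 5.37, 6.08 and 5.60 in static culture, without overlap, a difference of -0.63 ± 0.28 that did not pass (adjusted p 0.17). In the other states it lay between -0.16 and -0.01. Cldn6 lay between -0.40 and 0.12 and Pkp2 between -0.31 and -0.23 over the 4 states. Dsp was at -0.46, -0.35 and -0.18 at 6 h with vehicle, 6 h with indomethacin and 36 h with indomethacin, and no array detected it at 36 h in vehicle. None of these passed, and 0 of the values for Cldn6, Pkp2 and Dsp had an unadjusted p under 0.05 in limma. Spint1, Esrp1, Elf3, Rab25, Wnt4, Pax8, Sall1 and Upk3b passed in 0 of the 4 flow comparisons, with Wnt4 below an unadjusted p of 0.05 in 2 of them, Spint1 in 1, Rab25 in 1 and Upk3b in 1. For Sall1 the brightest probe gave -0.13 with vehicle and 0.09 with indomethacin at 6 h, and its dimmer probe -0.79 and -0.36. At 36 h the brightest gave 0.04 and 0.10, and the dimmer probe 0.19 in each drug state.

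Lhx1 was the transcription factor that differed most with flow at 6 h. It was at 9.62, 9.64 and 9.54 under WSS with vehicle, against 10.60, 10.56 and 10.71 in static vehicle cultures. With indomethacin it was at 9.67, 9.52 and 9.51 under WSS, against 10.61, 10.63 and 10.13 in static cultures. The groups did not overlap in either drug state. Lhx1 passed at -1.03 ± 0.27 with vehicle (adjusted p 0.0075) and at -0.89 ± 0.27 with indomethacin (0.027), and its other detected probe gave -1.35 and -1.13. The call with indomethacin was lost without array 1 or 2 of the static group or array 2 or 3 of the WSS group (up to 0.10). Scaling to equal medians over all probes ended both calls (adjusted p 0.097 with vehicle and 0.22 with indomethacin), a setting that moved the median of all genes by 0.23 and 0.27 in these comparisons. The Lhx1 call with indomethacin was also lost with median scaling over detected probes. At 36 h the WSS and static levels of Lhx1 were within 0.19 of each other, -0.03 ± 0.27 with vehicle and -0.19 ± 0.27 with indomethacin. The difference between the flow effects at 36 h and 6 h in vehicle was 1 ± 0.39 and did not pass (adjusted p 0.093). It passed with the mean over both probes (1.23, 0.025), without array 2 of the static 36 h group (1.23, 0.046) and without array 3 of the WSS 36 h group (1.26, 0.037).

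Osr1 at 6 h was at 9.65, 9.80 and 9.77 under WSS with vehicle, against 10.20, 10.15 and 10.31 in static vehicle cultures, a difference of -0.48 ± 0.11 (adjusted p 0.0029). With indomethacin it was at -0.42 ± 0.11 (0.013). Its arrays did not overlap, but its other probe gave -0.22 with vehicle and 0.23 with indomethacin, and with all-probe median scaling the indomethacin value was 0.03 (adjusted p 0.91). Both Osr1 calls were lost with the mean over its probes, and both with all-probe median scaling. The Osr1 call with indomethacin was also lost with median scaling over detected probes. Eya1 was the 1 member higher under WSS: 6.78, 6.91 and 6.63 under WSS with vehicle at 6 h, against 5.69, 6.18 and 5.77 in static vehicle cultures, with no overlap. It rose by 0.89 ± 0.30 (adjusted p 0.031) and was at 0.77, 0.68 and 0.70 (each ± 0.30) at 6 h with indomethacin, 36 h with vehicle and 36 h with indomethacin (0.087, 0.18 and 0.14). The call was lost without array 1 or 3 of the static group or array 1 or 2 of the WSS group (up to 0.097), and a dimmer Eya1 probe, detected on 12 of 24 arrays, gave -0.12.

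**Figure D3:**
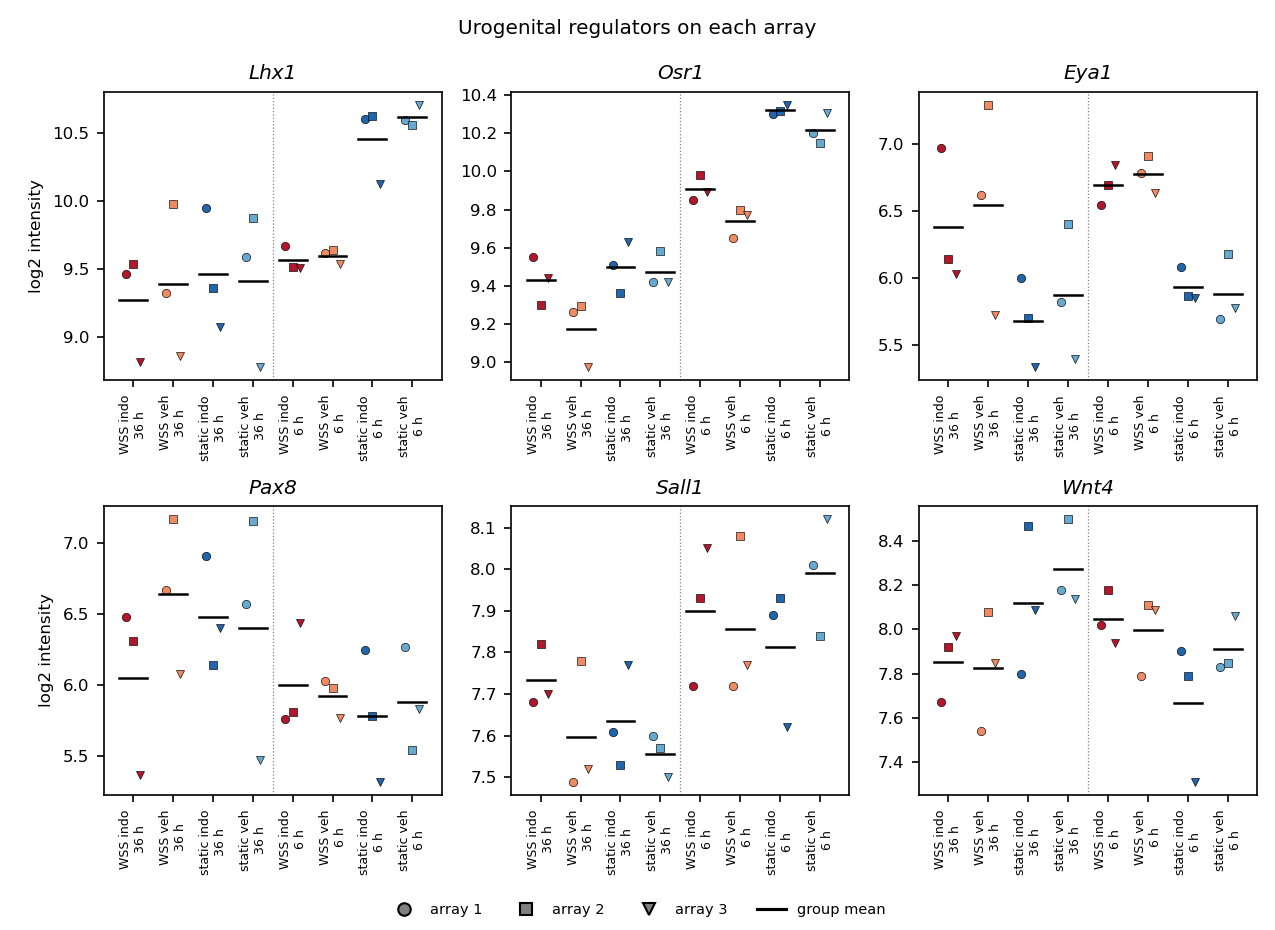
Normalized log2 intensity (y axis) of 6 urogenital regulators on each array, with the 36 h groups left of the dotted line, the 6 h groups right of it, and bars at group means. At 6 h the WSS arrays of Lhx1 and Osr1 lay below the static arrays and those of Eya1 above them, and at 36 h the arrays of Lhx1, Pax8 and Eya1 were widely spread.

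**Figure D4:**
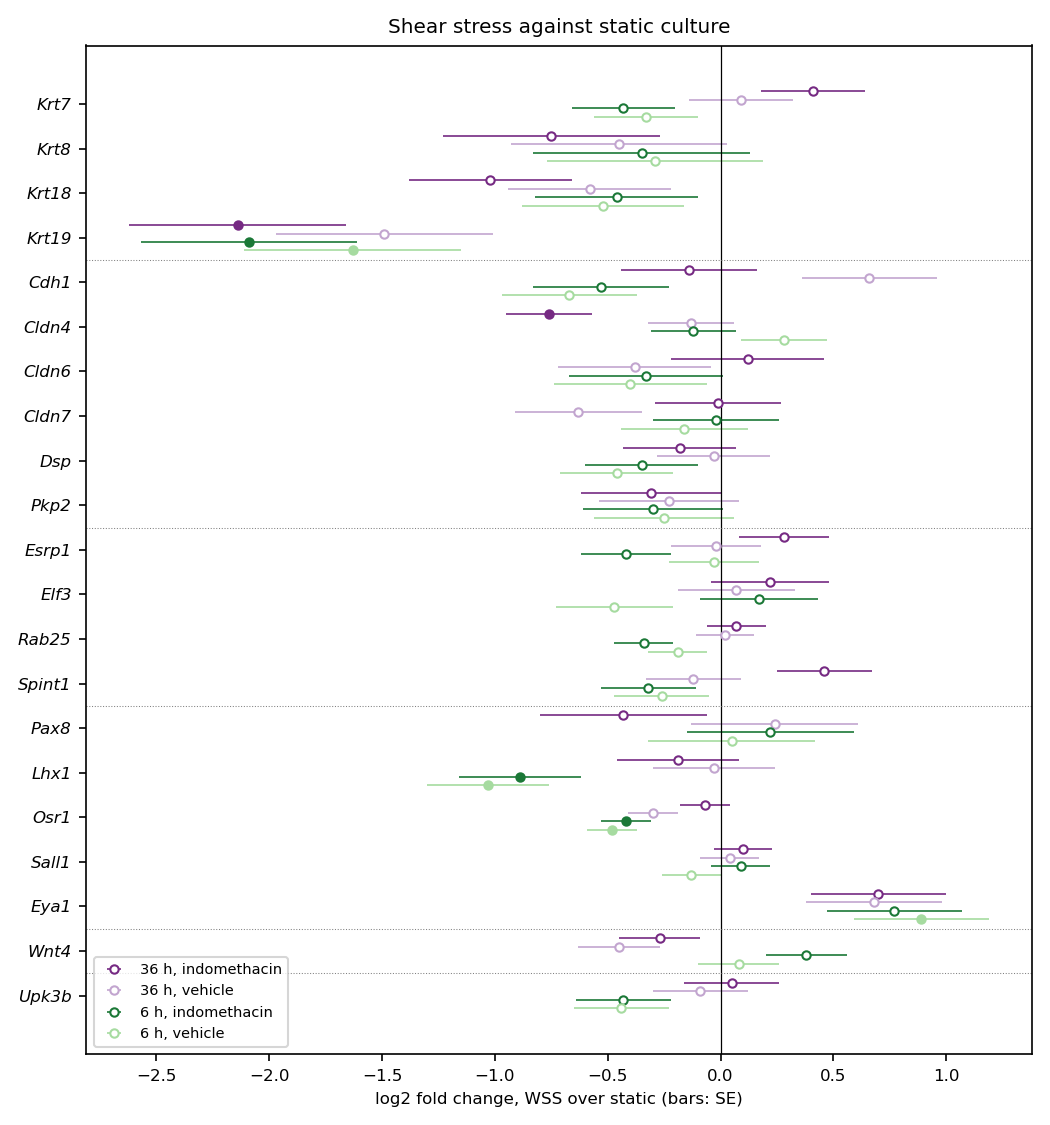
Log2 fold change of WSS over static (x axis, bars SE) for the 21 tested genes in each time and drug state, grouped by role, with filled points passing at adjusted p under 0.05. Krt19 lay between -2.14 and -1.49 in all 4 states, and Lhx1 and Osr1 had filled points at 6 h alone.

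Cdh1 was the 1 member whose flow effect differed between the times in vehicle, where 11.8% of all genes passed, 6.33% higher and 5.42% lower. Its WSS minus static difference was -0.67 ± 0.30 at 6 h and 0.66 ± 0.30 at 36 h (adjusted p 0.10 and 0.19, so neither passed alone), and the interaction was 1.33 ± 0.43 (adjusted p 0.048). With indomethacin the Cdh1 difference was -0.53 ± 0.30 at 6 h and -0.14 ± 0.30 at 36 h (0.25 and 0.81), and whether the drug altered the change was not tested. The call was lost without 9 of the 12 arrays in turn (up to 0.11): it remained without array 2 of the static 6 h group, array 3 of the static 36 h group and array 1 of the WSS 36 h group. It was also lost with median scaling, the processed values and no filter on dim probes (up to 0.085). Under flow by drug, over both times, 0 of the 21 and 0% of all genes passed in limma, with 1 member (Cldn4, -0.52 ± 0.19) and 406 genes, 3.32%, below an unadjusted p of 0.05.

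In the lists of other genes, 5 of 15 tested junction and epithelial genes were lower and 0 higher under WSS at 6 h in vehicle, where 14.3% of all genes were lower and 15.1% higher. Klf5, a zinc-finger factor of epithelial progenitors, passed at -1.44 ± 0.25 with vehicle and -1.54 ± 0.25 with indomethacin (adjusted p 0.00024 and 0.00026), and Tjp1, the tight-junction scaffold ZO-1, at -0.63 ± 0.17 and -0.50 ± 0.17 (0.0067 and 0.041). Of the 22 tested urogenital genes 5 were lower and 0 higher at 6 h in vehicle, beside the same shares of all genes. Among the lower was Gdnf, the ligand that draws out the ureteric bud, at -1.05 ± 0.22 (0.0011). At 36 h in vehicle 5 were lower and 1 higher, where 4.72% of all genes were lower and 4.66% higher. Ret, the Gdnf receptor of the nephric duct, rose by 1.38 ± 0.23 (0.00068), and Tcf21 fell by 1.05 ± 0.18 (0.00074). Both differed between the times, with interactions of 1.73 ± 0.33 for Ret and -1.23 ± 0.25 for Tcf21 (0.0030 and 0.0047). Zeb1 was at -0.60 ± 0.16 under WSS at 6 h with vehicle and at -0.60 ± 0.16 with indomethacin (0.0062 and 0.011).

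Of the marker lists, mesenchyme had 2 lower and 0 higher of 7 tested under WSS at 6 h in vehicle and 4 lower and 0 higher at 36 h, with sums of 4145 to 6273 under WSS at 36 h against 8439 to 8654 in static cultures. The shares of all genes in each state are those given above for shear stress. Neural markers had 3 higher of 5 tested at 36 h in vehicle (sums of 4696 to 5623 under WSS against 2158 to 2905 in static cultures; Nefl and Hand2 were not detected). Macrophage markers had 2 higher of 8 at 6 h in vehicle (456 to 1026 under WSS against 410 to 525 in static cultures). With indomethacin, 2 macrophage markers were higher at 6 h, and at 36 h 3 mesenchyme markers were lower and 3 neural markers higher (mesenchyme sums of 4588 to 5728 under WSS against 6714 to 8961 in static cultures, neural sums of 3070 to 5606 against 2115 to 2973). Krt14 rose by 0.98 ± 0.30 under WSS at 6 h with indomethacin (adjusted p 0.026), opposite in sign to Krt19. The 2 other tested surface ectoderm genes had lower means under WSS there and did not pass. Trp63 was at 4.91 against 5.68 in static culture, and Sfn at 4.91 against 5.25. The part of these markers in the flow differences was not tested.

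Indomethacin, which the study used to block prostaglandin synthesis, moved none of the 21 tested genes past the threshold. Over both flow states, 0 members passed at 6 h and 0 at 36 h in limma, where 0% and 0.00818% of all genes did. Below an unadjusted p of 0.05 were 1 member and 5.01% of genes at 6 h, and 2 members and 7.5% of genes at 36 h. The member nearest the threshold at 6 h was Rab25 at 0.46 ± 0.09 (adjusted p 0.33), a gene detected on all 3 arrays in the static indomethacin 6 h group alone. At 36 h Cldn4 was at 0.51 ± 0.13 (0.32) and Dsp at 0.62 ± 0.18 (0.36). For Cldn4 the 36 h static arrays read 5.60, 6.07 and 5.70 with indomethacin, against 4.79, 4.89 and 5.23 with vehicle, while the WSS arrays read 4.90, 4.98 and 5.20, against 4.72, 4.95 and 4.85. The static indomethacin group was thus the 1 group at 36 h in which every array detected Cldn4 and all lay above the vehicle arrays.

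Spread among replicate arrays was itself patterned at 36 h in vehicle. Array 2 of the static group was lowest of its 3 for Krt8, Krt18, Krt19, Cldn6 and Pkp2 and highest for Pax8, Lhx1 and Eya1, and array 2 of the WSS group was lowest for Krt8, Krt18, Cldn6 and Pkp2 and highest for the same 3 regulators. The summed intensity of the 4 keratins was 353, 203 and 508 on WSS arrays 1 to 3, against 591, 245 and 993 on static arrays. The 5 tested transcription factors summed to 1636, 2152 and 1272 on the WSS arrays, against 1801, 2122 and 1390 on the static arrays. Within each group the array with the lowest keratin sum had the highest regulator sum, and the array with the highest keratin sum the lowest. Some extremes fell on one array number in every group of a time: at 6 h Krt8 and Krt18 were lowest on array 1 and highest on array 2 in all 4 groups, and at 36 h Krt18 was highest and Lhx1 lowest on array 3 in all 4. At 6 h array 1 was the lowest for 10 to 13 of the 21 genes in each group. The labels tie the numbers to no shared batch or litter, and the cause of this spread was not tested.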

How the data were processed

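RNA of attached AGM cells was hybridised to 24 Illumina mouse bead arrays, 3 in each of 8 groups, which were taken from the sample titles. The authors deposited a non-normalized table with a signal intensity and a detection p-value per probe and array, and a table of processed intensity values for which the sources used here give no normalization. Each processed column ranked probes as the signals did (rank correlation 1), and its scale and centring stay unknown. The processed values served as an alternative.

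Signals were corrected with limma 3.58.1 (R 4.3.3; neqc, offset 16, with the background estimated from detection p-values), quantile-normalized and put on the log2 scale. Of 45281 probes, 35784 carried 1 symbol in the platform annotation, 0 several and 9497 none. In all, 21251 passed detection (p under 0.05 on every array of some group), and 18242 of these had a symbol. The brightest stood for each of 12226 genes. A linear model with 1 mean per group (16 residual degrees of freedom, lmFit and eBayes) gave each contrast, with Benjamini-Hochberg adjustment over all genes. A group in which no array detected a probe gives a bound, "at least N-fold": the bright group's mean against, on each dim array, the higher of the probe's own value and the lowest value of any detected probe. Data were simulated for WSS against static, vehicle, 6 h, over 12226 genes, with 200 genes changed and independent noise. There 29.6% of changes of 0.5, 79.7% of 1 and 100% of 2 (log2) were recovered, and 7 of 141 calls were unchanged genes. In the measured data 29.4% of genes passed in this comparison, and noise shared between genes was not simulated. These rates may therefore not hold for the data. The number of arrays limits the precision.

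Values per array are given for up to 4 passing members per role and kind of comparison, by size of change, and other members by ranges and counts. From each other list up to 4 passing genes per direction and comparison could be named; Snai1, Snai2 and Zeb1 over time were named beyond that, after their values were seen. Members, roles and lists were chosen with earlier results of these data known. Alternatives changed the background correction, scaling, detection filter, probe choice, source of values, arrays fitted and replicate block, and left out each array.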

Additional observations from a re-analysis of the deposited data

Results flagged for a closer look

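The flow effect on Cdh1 (E-cadherin) differed between the time points in vehicle, with an interaction of 1.33 ± 0.43 (SE, adjusted p 0.048 by limma over all genes). Cdh1 was at 5.35, 6.16 and 6.34 under WSS at 36 h, against 5.23, 5.05 and 5.60 in static culture, and at 6.38, 6.54 and 6.75 under WSS at 6 h, against 7.59, 6.80 and 7.29 in static culture. The arrays overlapped at 36 h and did not at 6 h. The call was lost without 9 of 12 arrays in turn and under several other settings.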

How the results depend on the processing

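Leaving out each array in turn gave 14 to 16 members for static vehicle (16 with all arrays), 9 to 12 for WSS vehicle (12), 13 to 14 for static indomethacin (15) and 9 to 11 for WSS indomethacin (11). For WSS against static the ranges were 2 to 5 at 6 h in vehicle (4), 0 to 2 at 36 h in vehicle (0), 2 to 3 at 6 h with indomethacin (3) and 1 to 3 at 36 h with indomethacin (2). The drug comparisons and the flow by drug interaction gave 0 throughout, and the flow by time interaction 0 to 1 (1).

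At 36 h in vehicle the flow count was 1 without background correction, with median scaling, with median scaling over all probes (chosen after seeing the data) and with a replicate block. At 36 h with indomethacin it was 1 without background correction. The flow by time count was 0 with median scaling, median scaling over all probes, processed values and no filter on dim probes, and 2 with the mean over detected probes and with the replicate block. The cause of these shifts was not tested. The array numbers were not taken to pair the samples, since the labels tie them to no shared batch or litter. Over 84 same-numbered pairs the correlations ran from -0.23 to 0.36 and 26 were over 0.1. These pairs pool arrays of the same time and of different times, so they cannot show whether arrays were paired within a time. As a hint from the data, 13 of 24 arrays correlated best with their own number. The replicate block gave each number the same effect at both times, so it did not model patterns that differed between the times. With the replicate block Krt18 passed for WSS against static at 36 h with indomethacin (-1.02, adjusted p 0.023, against 0.070 without it), as did Krt19 at 36 h in vehicle (0.041), Upk3b at 6 h in vehicle (0.045), Eya1 at 6 h with indomethacin (0.049), Krt7 over time in WSS indomethacin cultures (0.043) and the Lhx1 flow by time interaction (0.036). For single genes, 1 value reversed: Osr1 for WSS against static at 6 h with indomethacin was 0.03 under all-probe median scaling. Rab25 for 36 h against 6 h in static vehicle was 0 with processed values, where all 6 arrays compared lay at the floor of 16, and so has no direction. Over the single-gene results of the 21 under all alternatives, 4369 stayed on their side of the threshold, 94 lost it and 36 gained it. All-probe median scaling moved the all-gene median by 0.23, 0.21 and 0.27 for flow at 6 h in vehicle, 36 h in vehicle and 6 h with indomethacin, and by 0.11 for time in static indomethacin. The share of calls that were higher was then 82.3%, 87.1%, 88.9% and 66.1%, instead of 51.2%, 49.7%, 53.1% and 52.4%. It was 67% instead of 46.6% for flow at 36 h with indomethacin and 40.8% instead of 53.9% for flow by time with median scaling over detected probes. Over all genes, flow at 36 h in vehicle gave 1147 calls, 123 with only the arrays compared and 2066 with all-probe median scaling. At 36 h with indomethacin it gave 1325, and 710 with only the arrays compared. At 6 h with indomethacin it gave 2175, 1179 without array 1 of the static group and 4575 with all-probe median scaling. Flow by time gave 1437, and 680 with all-probe median scaling. Members near background are limited by signal over background. These are Esrp1, Rab25, Elf3 and Cldn7, and at 36 h Krt7, Cldn6, Dsp and Upk3b. At 36 h Cldn4 outside static indomethacin cultures and Krt19 under WSS are also among them.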
